A study of Mus musculus with 13 samples.

Results

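Introns of more than 500 nt that stayed in part of the messenger RNA were examined across postnatal development of the mouse cerebellum, with and without the RNA-binding protein Sam68. An intron was a member when it was longer than 500 nt, was covered by 10 or more reads in 4 or more libraries and had a mean retention of 5 to 95% over those libraries. Of 117007 listed introns of that length, 90441 had enough reads and 16627 (18.4% of these) were members, in 7460 host genes. Retention is given as PSI, the percentage of reads at an intron that come from the unspliced form. Since measured PSI values chose the members, their levels are a description, and an intron retained in 1 group alone could also enter.

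The 13 libraries were made from total RNA of whole cerebella of C57BL/6 mice with a modified stranded mRNA kit. There are 5 groups. Wild-type mice were sampled 1, 10 and 30 days after birth (P1, P10 and P30), with 2, 2 and 3 libraries. Mice labelled Sam68 ko were sampled at P1 and P10 with 3 libraries at each age, and P30 has wild type alone. The labels do not say whether libraries come from separate animals or litters, so p-values measure only the spread between libraries, nor do they describe the knockout allele. Sam68 is encoded by Khdrbs1, whose expression, in cRPKM (reads scaled to the mappable length of the transcript and to library size), was 56.45 and 74.4 in wild type at P1 and 61.2 and 56.2 at P10. In the knockouts it was 5.42, 4.22 and 8.5 at P1 and 2.06, 1.28 and 3.59 at P10, and in wild type at P30 it was 31.37, 29.5 and 36.75. Each knockout library lay below every wild-type library of its age, so the gene's own level matches the labels.

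An intron that is not removed can hold the transcript in the nucleus, or can bring a premature stop codon into the reading frame and send the RNA to nonsense-mediated decay. In neurons some transcripts wait in the nucleus with 1 intron still present, called a detained intron, and many genes for splicing factors hold such introns. Sam68 binds U/A-rich RNA and acts on exon choice, on alternative last exons and on intron removal.

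The ends of an intron are read by the spliceosome at the 5′ splice site and the 3′ splice site, and these windows are shown for introns that the results below turn on. In each line the first window holds 3 exon bases and the first 17 intron bases with the first 6 intron bases in capitals, and the second holds the last 22 intron bases, with the last 3 in capitals, and 3 exon bases. The windows come from GENCODE M21 transcripts that keep the intron, matched by gene, strand, intron length and the length of a neighbouring exon. Such a transcript was found for 1070 members. The first lines are introns of high or steady retention and the rest rose in wild type between P1 and P30.
Arglu1 5′ window: gagGTAACGctcggtcgttt
Arglu1 3′ window: cgcaacatgtcctccccttTAGgag
Gnao1 5′ window: ttgGTAATTccagcactcac
Gnao1 3′ window: gcccctatctctctctctaCAGact
Rab11fip2 5′ window: ctgGCAAGTtcaccaatagc
Rab11fip2 3′ window: agtttaaaatgtacttttaCAGtat
Srsf2 5′ window: atgGTAATGtctgcgggaat
Srsf2 3′ window: acctctttcttttcaaaccTAGatg
Srsf6 5′ window: gcaGTGAGTccttacccccg
Srsf6 3′ window: ttactcccttcatgtgataAAGgtg
Rbm25 5′ window: aagGTAGTAttcttgatttt
Rbm25 3′ window: aagtacttttgttggtttcTAGaaa
Ccnl1 5′ window: ctgGTAAGTtcctcttttac
Ccnl1 3′ window: ttagagctgaaatgtttttCAGgaa
Ezh2 5′ window: agtGTAAGTatttgttgctt
Ezh2 3′ window: gatgatacatttatccctaAAGgtc
Kif22 5′ window: tcaGTAAGGttcaggctgat
Kif22 3′ window: taacaccttttttcacctaCAGgtt
All but 1 of these introns begin with GT. The exception, in Rab11fip2, begins with GC and had a mean PSI of 94.65, one of the highest among the members.

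Of the 1070 members with a sequence, 98.0% ran from GT to AG, against 98.7% of 2540 retained introns of up to 500 nt. GC-AG ends made up 1.4% and 1.14%, and 3 long introns had AT-AC ends. The start ATATCC or GTATCC, which is read by the minor spliceosome, was looked for at the first 6 intron bases on the transcribed strand. It was present in 14 long introns (1.31%) and in 19 short ones (0.748%). They lay in genes such as Mapk8 (a kinase), E2f6 (a transcriptional repressor) and Prim1 (a DNA primase subunit), which are shown because they carry this start.
Mapk8 5′ window: actGTATCCttgtgctgctg
E2f6 5′ window: aagATATCCttccatcagta
E2f6 3′ window: cagatccttgaccaggtctCACact
Prim1 5′ window: agaATATCCtttcctgcggt
Prim1 3′ window: atgctccttaatgaagcatCACcaa
The median of their mean PSI was 17.84, with a range from 5.3 to 64.64. Group medians over the 14 were 15.23 (wild type) and 13.71 (knockout) at P1, 20.26 and 18.16 at P10, and 14.96 in wild type at P30. A match of these letters describes the sequence and is not evidence of which spliceosome acts. The G and C content of the long introns was lower, with a median of 46.3% against 55.3% in the short ones.

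Members had a median length of 1800 nt, with quartiles at 1005 and 3417 nt. Most were retained at a low level. The median of the mean PSI was 10.86, 45.6% of members lay at 5 to 10% and 1.44% at 80 to 95%. The 8299 retained introns of up to 500 nt, chosen by the same read and PSI rule, had a median of 12.01, with 41.0% and 2.51% in those ranges. The rule took a smaller share of the long introns with enough reads (18.4%) than of the short ones (25.6%).

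Most members, 92.7% of those matched to a GENCODE transcript, lay in the coding region, 5.45% in the 5′ UTR and 0.824% in the 3′ UTR. Far fewer long than short introns are annotated as retained in some transcript, 6.53% against 31.0%. Annotated members had a median PSI of 15.62 and the others 10.6. An annotated exon of the same gene lies inside 15.3% of the members and 1.08% of the short introns, and members with such an exon had a median of 13.1, against 10.55 without. PSI compares reads across the 2 exon-intron junctions with reads that join the flanking exons, so it does not follow splicing into that exon. Reads across the 2 exon-intron junctions were in balance in most libraries for 77.0% of the long and 90.6% of the short introns.

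Median retention was higher in the most weakly expressed hosts. Among 732 members whose host had under 1 cRPKM the median PSI was 20.61, against 11.82 at 1 to 5 cRPKM, 10.27 at 5 to 20 and 10.02 at 20 to 100. The 121 members with hosts at 100 cRPKM or more had a median of 11.72. The rule needs reads, so weak hosts entered with few reads (median 11.2 per library under 1 cRPKM, 178 at 20 to 100). Retention differed little with length. The median was 11.17 at 500 to 1000 nt, 10.86 at 1000 to 2000 nt and 10.86 above 10000 nt.

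Of the host genes, 3304 held 1 member, 3496 held 2 to 4 and 660 held 5 or more. Ryr3, a calcium release channel, had the most, with 19 of its 100 listed introns and mean PSI from 6.29 to 60.97. Cc2d2a (a protein of the ciliary transition zone), Fanca (DNA repair) and Plekha5 had 13 each, and Usp28, a deubiquitinase, had 12. Expression of Fanca was 2.42 cRPKM in wild type at P1 and 0.12 at P30, and only 1 of its 13 introns had enough reads for the test of P30 against P1. In Plekha5, expressed at 11.5 to 26.2 cRPKM in all groups, all 13 introns were tested in every comparison and 0 were called, and the group medians lay between 8.41 and 15.21.

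At the edges of the rule, the shortest members, in Chi3l1, Stag3 and Npepl1, had 501 nt, while introns of Shmt2, Uspl1 and Top3b had 500 nt and stayed out. Introns of Ripk2, Fam116a and Wdr85 entered at a mean PSI of 5.0, and those of Galnt2 (4.998), Trim35 and Rheb (4.999 each) did not. At the upper edge Nsd1 (94.986), Duox1 (94.902) and Il12rb2 (94.806) entered and Bud31 (95.145) and Foxo3 (95.178) did not.

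Library medians over the 12113 members measured in all 13 libraries had a range within the group of 2.88 to 7.36 points in 4 of the 5 groups, and 1.25 in wild type at P1. The P1 medians were 9.09 and 10.34 for wild type, with 7.24, 11.88 and 10.29 for knockout. At P10 the wild-type medians were 9.98 and 12.86, and knockout had 10.59, 8.37 and 14. At P30 they were 6.93, 14.29 and 9.38. The group means ran from 9.72 ± 0.88 (SD, n = 2, wild type P1) to 11.42 ± 2.04 (SD, n = 2, wild type P10), and the 3 libraries of P30 alone span the values of all groups.

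The short introns moved with the long ones in the same libraries, with 7.76, 15.61 and 11.09 at P30. Retention therefore differed by library over introns of all lengths, and what moves with it in the RNA was not tested. The median depth was 52.2 to 113 reads per member and library.

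**Figure D1:**
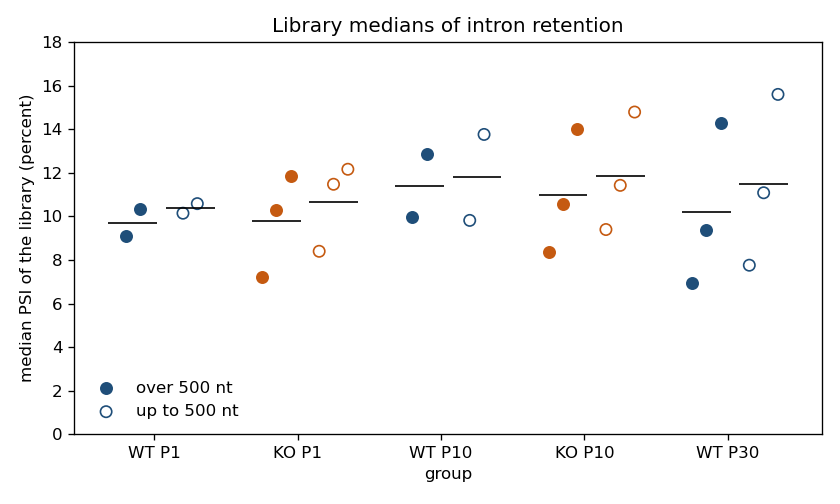
Median PSI (percent, linear axis) in each library for introns of more than 500 nt (filled points) and up to 500 nt (open points), by group, with group means as bars; wild type is blue and knockout orange. The P30 libraries sit at 6.93, 9.38 and 14.29, which covers the range of all groups.

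Between P1 and P30 in wild type, 1031 of 13138 tested members changed, 606 towards more retention and 425 towards less. That is 7.85% of the long introns, against 9% of all 35555 splicing events tested in the same way and 6.8% of the short introns. An intron was called when limma's test on the log2 odds of retention gave an adjusted p below 0.05 and the group means differed by at least 10 points of PSI. The median difference over all tested members was 0.49 points, against 0.9 over all events. At an unadjusted p below 0.05 there were 3381 members (25.7%), against 26.4% of all events. Higher calls made up 4.61% of members and 5.52% of all events, and lower calls 3.23% and 3.48%. The count rests on few libraries. It was 390 without wild-type P1 library 8, 421 without library 9, 678 without P30 library 2 and 587 without P30 library 3. The share of higher calls was 58.8%, 74.3% without P30 library 1 (1023 calls), 47.2% without P30 library 2 and 53.8% (1434 calls) with libraries centred on their median intron, which kept 986 of the 1031. Requiring balanced junctions left 431 calls, 228 higher and 203 lower. Junctions were out of balance in 40.1% of values of higher, 35.7% of lower and 28.5% of uncalled introns. An annotated exon of the same gene lay inside 28.5%, 15.3% and 15.3% of them. A call therefore does not show that the whole intron was kept.

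For the called introns the levels in all groups are given as a description. Medians of the higher set were 6.48, 16.67 and 34.2 in wild type at P1, P10 and P30, and 7.91 and 13.62 in knockout at P1 and P10. Medians of the lower set were 26.93, 14.03 and 4.67, and 25.91 and 16.34 in knockout. The P1 and P30 values chose these introns, and the spread of all groups entered the fit that called them.

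Host gene expression moved against retention more often than with it. Of 597 introns with higher retention and a tested host, 151 (25.3%) had a host that fell between P1 and P30 and 49 (8.21%) one that rose, with a median host change of −0.44 in log2(cRPKM + 1). Of 418 with lower retention, 32 hosts fell (7.66%) and 111 rose (26.6%), with a median of 0.48. Among 11933 uncalled introns the shares were 10.9% falling and 8.66% rising. Of 7171 tested hosts, 1708 changed (23.8%, against 25.4% of all genes), 696 rising and 1012 falling (9.66% and 15.8% of all genes). The host moved against retention in 262 of the 1015 called introns, moved with it in 81 and did not pass the test in 672.

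**Figure D2:**
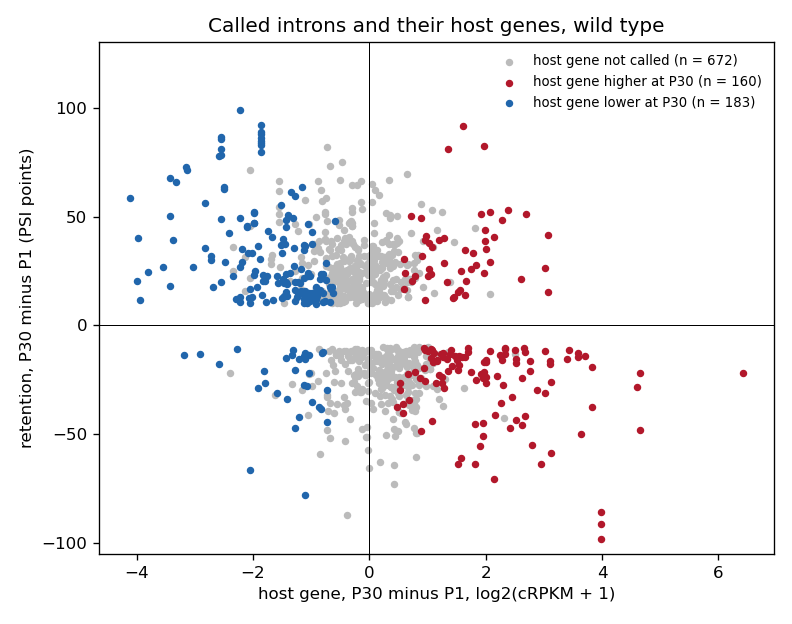
Change in retention (PSI points) against change in host gene expression (log2(cRPKM + 1)), wild-type P30 minus P1, for called introns with a tested host; colours give the host's own call. Points with a host lower at P30 (blue, n = 183) lie mostly above 0 on the retention axis and points with a host higher at P30 (red, n = 160) mostly below; 672 hosts were not called.

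PSI is a ratio, so the deposited reads of both forms were followed, each scaled to the library's total reads on the members. These reads are the total at an intron split between the forms by PSI, so they are not measured apart from PSI. For example, 55 exon-intron and 13 exon-exon reads of a Zkscan2 intron in knockout P1 library 13 became 46.17 and 21.83. Retained and spliced reads are given in this sense below. In the 606 introns with higher retention, reads of the retained form rose by a median of 1.63 (log2) and reads of the spliced form fell by 0.96. Both changed in these directions in 475 introns, both forms rose in 90 and both fell in 41. The spliced form changed more than the retained form in 224 (37.0%). In the 425 introns with lower retention the medians were −2.08 for the retained and 0.81 for the spliced form, and the spliced form changed more in 132 (31.1%). With hosts of at least 5 cRPKM at both ages, the medians were 1.75 and −0.73 for 368 higher introns. They were −2.05 and 0.8 for 249 lower ones. Among 12107 uncalled introns both medians were −0.2, with retained reads up and spliced reads down in 2366 and the reverse in 1966. PSI from the same libraries chose the called introns, so their directions were in part fixed by the call.

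**Figure D3:**
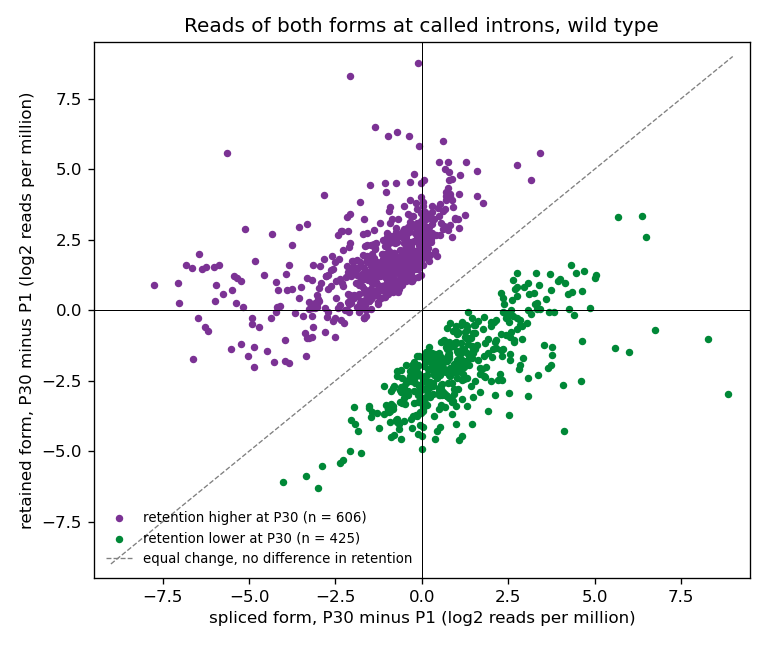
Change between P1 and P30 in reads of the spliced form (horizontal) and of the retained form (vertical), for the called introns in wild type. Both are log2 reads scaled to the library's total on the members. The total at an intron is split between the forms by PSI, and PSI chose the introns. Points on the dashed line would have equal change; 475 of 606 higher introns lie in the upper left part and 285 of 425 lower ones in the lower right.

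Among the largest changes were introns whose spliced form fell to few or no reads and introns that gained retained reads. Igf2bp3, an RNA-binding protein of fetal tissue, and Kif22, a mitotic kinesin, belong to the first kind. In the Igf2bp3 intron at chr6:49054299-49055568 (mm9, minus strand, intron 9 of 14, coding region) PSI was 11.54 and 12.86 at P1, 68.18 and 58.62 at P10 and 100 in all 3 P30 libraries. The groups did not overlap (log2 odds difference between P30 and P1 8.64 ± 0.53 (SE), adjusted p = 4.3e-06).

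Behind these values, exon-exon reads in Igf2bp3 went from 46 and 105 at P1 to 0 in each P30 library. Reads across its exon-intron junctions were 12 and 31 at P1 and 22, 37 and 28 at P30. Expression of the gene fell from 6.22 ± 3.1 (SD, n = 2) to 0.91 cRPKM. The knockout had 25.93, 15 and 35.21 at P10, below both wild-type libraries, but the difference did not pass the test (adjusted p = 0.517). The other 3 named Igf2bp3 introns also reached 100 in every P30 library.

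In the Kif22 intron at chr7:134174612-134176142 (minus strand, intron 8 of 13) PSI was 14.32 and 14.97 at P1, 16.42 and 13.2 at P10 and 92.47, 94.39 and 100 at P30. Knockout libraries had 6.35 to 15.56 at P1 and 4.63 to 12.47 at P10. P30 stood apart from all other libraries (adjusted p = 0.000161 against P1). Exon-exon reads were 47 and 67 at P1 and 1, 1 and 0 at P30, with 25, 34 and 30 exon-intron reads left, and expression fell from 10.3 to 0.953 cRPKM. The Kif22 intron whose ends are shown above went from 7.28 and 5.11 at P1 to 83.33, 100 and 91.67 at P30.

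The list of granule cell precursor and proliferation genes had 7 tested introns, of which 1 rose and 1 fell between P1 and P30. Over all events 5.52% rose and 3.48% fell, and 7 introns are too few to set against these shares. The intron that fell lay in Mycn, a transcription factor of precursors (a difference of −13.46 points, adjusted p = 0.0379). By the rule for the largest changes, the Nuf2 intron (a kinetochore protein) rose from 3.67 to 81.28 as a mean (adjusted p = 0.000342) while expression fell from 12.3 to 1.16 cRPKM, and that of Kif20a, a cytokinesis kinesin, rose by 71.60 points (adjusted p = 0.00289). Ezh2, a histone methyltransferase chosen after its values were seen, had an intron at chr6:47490855-47491843 (minus strand) with PSI of 12.73 and 10.5 at P1, 30.91 and 32.24 at P10 and 52.38, 66.67 and 51.72 at P30. Its mean expression was 24.6 cRPKM at P1 and 4.52 at P30. Fewer cells of a type and less RNA per cell cannot be told apart in such bulk samples. Markers of granule cell precursors and dividing cells summed to 466 cRPKM in wild type at P1 and 77 at P30, and 15 of 16 passed the test as lower. Their part in the retention values was not tested.

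The reverse was seen in Mog, a myelin protein of oligodendrocytes. PSI of its intron at chr17:37152034-37154432 (minus strand, intron 3 of 6) was 100 in all 5 P1 libraries, 4.95 and 11.48 in wild type at P10, 2.34, 1.87 and 5.66 in knockout at P10, and 1.67, 2.04 and 1.75 at P30. P1 did not overlap any later group (log2 odds difference of P30 from P1 −11.83 ± 0.52 (SE), adjusted p = 5.58e-07). No exon-exon read was found in any P1 library, where 8 to 19 exon-intron reads carried the value. At P30 there were 118 to 140 exon-exon reads and 4 or 5 exon-intron reads. Expression rose from 1.98 ± 0.148 (SD, n = 2) to 46.8 ± 9.97 cRPKM (SD, n = 3), and oligodendrocyte markers summed to 194 cRPKM at P1 and 4180 at P30. Mappability correction multiplied the reads of this intron by more than 2 in the authors' table, and 93 exon-intron reads lay on 1 junction and 5 on the other.

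Retained reads appeared in Kalrn, an exchange factor for small GTPases in dendritic spines. PSI of its intron at chr16:34262906-34294203 (minus strand, 31298 nt, intron 10 of 58) was 6.67 and 10.89 at P1, 76.1 and 70.65 at P10 and 71.98, 62.26 and 78.29 at P30. Knockout libraries had 7.69 to 12.4 at P1 and 64.15 to 82.69 at P10. P1 lay apart from both later ages in both genotypes, and expression (6.9 and 7.39 cRPKM in wild type at P1 and P30) differed by less than the spread between libraries. All 899 exon-intron reads fell on 1 of the 2 junctions, so the reads do not show that the whole intron was kept.

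Itsn1, an endocytic scaffold, had a peak at P10. Its intron at chr16:91863624-91868264 (plus strand, intron 24 of 36) had PSI of 5.12 and 5.43 at P1, 54.62 and 60.29 at P10 and 0.6, 1.67 and 1.29 at P30 in wild type. Knockout libraries had 3.29 to 5.93 at P1 and 48.45 to 53.57 at P10. The rise from P1 to P10 passed in both genotypes (adjusted p = 0.00274 in wild type and 0.000475 in knockout), as did the fall to P30 (adjusted p = 7.7e-05). Here too 7107 reads crossed 1 exon-intron junction and 30 the other.

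Pfkp, the platelet type of phosphofructokinase, fell in steps. PSI of its intron at chr13:6587900-6597104 (minus strand, with an annotated exon inside) was 89.29 and 90.25 at P1, 49.03 and 60.75 at P10 and 10.35, 26.29 and 14.57 at P30 (adjusted p = 2.63e-05 for P30 against P1). Knockout libraries held 88.05 to 90.08 at P1 and 49.93 to 58.35 at P10. Ages did not overlap in either genotype, and expression stayed at 41.1 to 71.9 cRPKM in all groups. Junction reads were 5597 and 1681, out of balance in all 13 libraries. Retained reads fell by 3.59 and spliced reads rose by 1.91 (log2). Itpr1, the IP3 receptor of Purkinje cells, had PSI of 80 and 80.42 at P1 and 22.08 to 33.43 in the later wild-type libraries, with 5017 reads on 1 junction and 29 on the other. Its expression rose from 16.4 to 395 cRPKM.

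Gabbr1, a GABA-B receptor subunit, rose at both of its member introns. Intron 5 at chr17:37186743-37187943 (plus strand) had PSI of 17.87 and 21.48 at P1, 41.69 and 36.81 at P10 and 61.54, 55.12 and 59.62 at P30. The knockout had 14.65 to 23.25 at P1 and 32.35 to 41.14 at P10. Age groups did not overlap (log2 odds difference of P30 from P1 2.54 ± 0.34 (SE), adjusted p = 0.000858). The 2 junctions had 4329 and 379 reads, out of balance in all 13 libraries, and those of the other Gabbr1 intron 2086 and 364, with an annotated exon inside, so the whole introns are not shown to be kept. Expression was 148 and 179 cRPKM at P1 and P30 and did not pass the test (adjusted p = 0.357). Retained reads rose by 1.23 and spliced reads fell by 1.31 (log2).

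**Figure D4:**
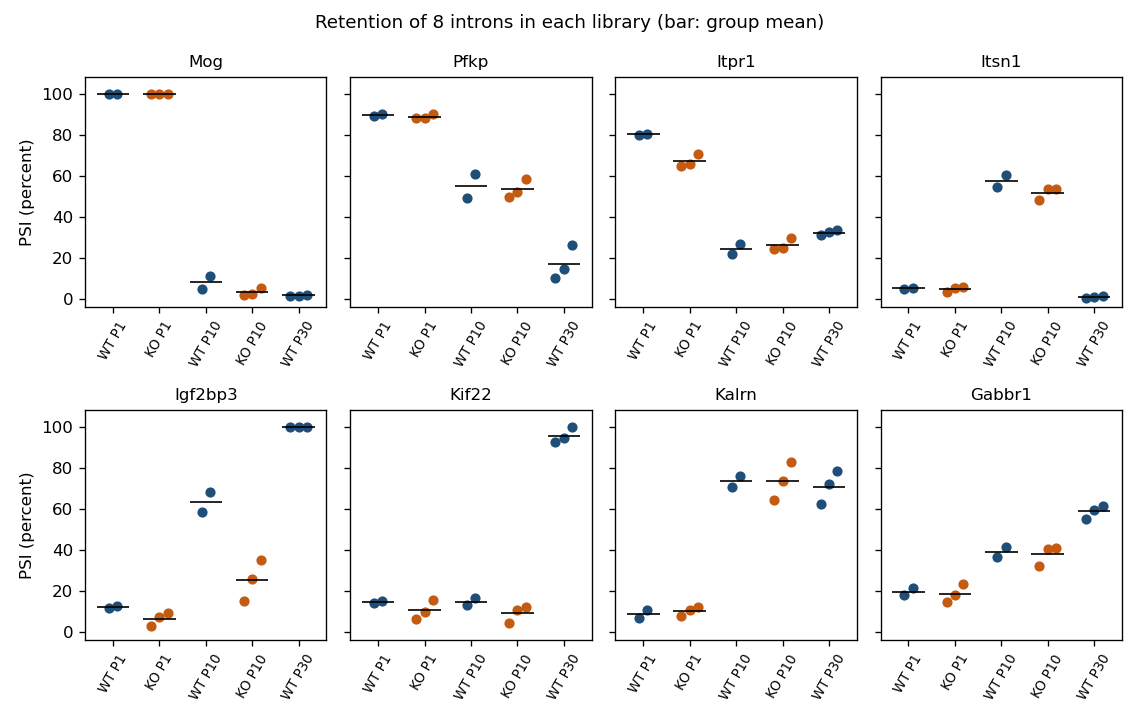
PSI (percent) in every library for 8 introns, by group, with group means as bars; wild type is blue and knockout orange. Mog, Pfkp and Itpr1 start high at P1, Itsn1 peaks at P10, and Igf2bp3, Kif22, Kalrn and Gabbr1 end high.

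Splicing factor genes with detained introns held 63 members in 30 of 47 listed genes, with a median PSI of 22.95 against 10.86 over all members. Between P1 and P30 in wild type 6 rose and 1 fell of 63 tested, where 5.52% of all events rose and 3.48% fell. The genes with rising introns included Ccnl1 (a cyclin of splicing kinases), Tia1 (an RNA-binding protein), Rbm25, Srsf2 and Srsf6. The intron that fell lay in Srsf7. The median difference was 2.38 points, against 0.49 over all tested members. Of 44 tested genes of the list 9 fell and 3 rose, where 15.8% of all genes fell and 9.66% rose. The called introns named from this list, and the called introns of other lists below, are outside the naming rule and were chosen after their values were seen.

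In Srsf2, whose protein binds exonic enhancers, the 3′ UTR intron at chr11:116712276-116713334 (minus strand) had PSI of 16.3 and 17.11 at P1, 18.95 and 22.92 at P10 and 31.9, 58.22 and 45.68 at P30. Expression went from 89.8 to 53.7 cRPKM, and the reads of the spliced form fell by 1.31 (log2) while retained reads rose by 0.72. Srsf6 (chr2:162757879-162759161) had 7.11 and 8.66 at P1, 28.55 and 23.22 at P10 and 27.51, 53.89 and 49.22 at P30. Junction reads were 2355 and 758 in Srsf2 (out of balance in 6 libraries) and 1939 and 293 in Srsf6 (out of balance in 13). Both introns have an annotated exon inside, so PSI does not follow every spliced form and the whole introns are not shown to be kept. Each P30 library was above both P1 libraries in both genes, and library 2, with the highest median over all introns, was highest of the P30 libraries in each.

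Other introns of this list with many reads were not called. The Arglu1 intron (chr8:8681468-8683747, minus strand), in a gene for a splicing coactivator, had group means of 71.37 and 68.63 at P1, 63.95 and 69.56 at P10 (wild type, then knockout) and 58.09 at P30, and no comparison called it. Its junctions had 24520 and 3047 reads. The Hnrnph1 introns 4 and 5, among the members with the most reads, had mean PSI of 9.94 and 14.72. Outside this list, the Gnao1 intron (chr8:96490984-96491931), in the 3′ UTR of a G protein subunit gene, had 67.51 and 67.09 at P1 and 78.48, 80.76 and 79.94 at P30, a rise of 12.43 points that missed the threshold (adjusted p = 0.0734).

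Core spliceosome genes had 3 higher and 1 lower of 33 tested introns, and neuronal splicing regulators 3 and 2 of 36. For these lists and the next ones the shares over all events are 5.52% higher and 3.48% lower. The Snrnp70 intron (a U1 snRNP protein) had means of 41.66 ± 5.34 (SD, n = 2) at P1 and 67.1 ± 10.01 (SD, n = 3) at P30, short of the threshold (adjusted p = 0.0588). Celf1, a regulator of splicing and decay, rose at its 3′ UTR intron from 36.16 and 42.66 at P1 to 64.38, 70.32 and 63.74 at P30, and had already reached 71.91 and 72.89 at P10. Mbnl2, which acts in adult splicing programmes, fell from 34.52 and 53.41 to 12.16, 22.02 and 15.05 with mean expression of 12.1 and 62.1 cRPKM. The Snrnp70, Celf1 and Mbnl2 introns each have an annotated exon inside, and their junctions were out of balance in 13, 9 and 13 libraries. Genes of nonsense-mediated decay had 1 higher (Smg6) and 0 lower of 29, and long noncoding and snoRNA host genes 0 of 4. Chromatin modifiers had 7 higher and 3 lower of 61, of which 3 higher introns lay in Hdac7 and 2 in Ezh2.

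Synaptic and channel genes lost retention more often than they gained it. Of 72 tested introns in this list 15 fell and 6 rose, against 3.48% lower and 5.52% higher over all events, with a median of −2.37 points, and 33 of the 51 genes rose while 5 fell (9.66% and 15.8% over all genes). Scn1a and Scn8a (sodium channels), Cacna1a (the Purkinje calcium channel), Kcnc1 (a fast potassium channel), Dlg2, Shank2, Syn1 and Syn2 were among the genes with falling introns. Scn1a, Scn8a and Cacna1a each held more than a single falling intron, and introns of the same gene are not independent. Rising ones lay in genes that included Cacna1g, Grin1 (2 introns), Scn2a1 and Shank3. The Scn2a1 intron had a mean of 27.5 reads per library and no value in P30 library 1, with 85.71 and 100 in libraries 2 and 3. Its spliced reads fell by 5.75 (log2) while mean expression went from 33.1 to 85 cRPKM. Junction reads of the Shank3 intron were 109 and 0, so the whole intron is not shown to be kept. Dlg2 and Shank2 are scaffolds, and Syn1 and Syn2 coat synaptic vesicles.

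In Scn1a the intron at chr2:66127213-66134809 (minus strand) had PSI of 74.82 and 60.67 at P1, 19.09 and 33.05 at P10 and 3.84, 4.98 and 3.7 at P30 (adjusted p = 0.000166). Its mean expression was 8.86 cRPKM at P1 and 32.6 at P30. Retained reads fell by 2.41 and spliced reads rose by 3.06 (log2). The junctions of this Scn1a intron had 159 and 40 reads (out of balance in 3 libraries). An annotated exon lies inside it, so the whole intron is not shown to be kept. The Kcnc1 intron at chr7:53690717-53692641 went from 62.11 and 83.51 to 11.59, 25.08 and 16.68 (adjusted p = 0.000883), but its retained reads rose by 1.26 while spliced reads rose by 5.03. Cacna1a had the same pattern at chr8:87136312-87138593, with PSI of 50 and 70.67 at P1 and 5.51, 13.28 and 9.55 at P30, and changes of 0.67 and 4.63. In these introns, chosen after their values were seen, PSI fell and spliced reads rose. Retained reads fell in Scn1a and rose in Kcnc1 and Cacna1a. What lowered PSI was not tested.

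Grin1, the obligatory NMDA receptor subunit, went the other way at its last 2 introns. Intron 19 at chr2:25148005-25149957 (minus strand) had PSI of 41.57 and 38.46 at P1, 33.33 and 52.89 at P10 and 72.55, 83.3 and 77.59 at P30 (adjusted p = 0.00585), with mean expression of 41.7 and 85.4 cRPKM. Retained reads rose by 2.7 and spliced reads by 0.29 (log2). This end of Grin1 is known for alternative splicing of its C-terminal exons. The Grm2 intron in the 5′ UTR fell from 43.53 and 48.05 to 16.72, 15.33 and 24.87 (adjusted p = 0.00774).

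From P1 to P10, 38 of 13688 members were called in wild type, 24 higher and 14 lower (0.278%, against 0.395% of all events, 0.203% higher and 0.192% lower). In knockout 71 of 14697 were called, 37 higher and 34 lower (0.483%, against 0.624% of all events, 0.332% higher and 0.292% lower). The wild-type count was 19 or 24 without P1 library 8 or 9, 12 or 14 without P10 library 5 or 6 and 0 when only these 4 libraries were fitted. The share of higher calls, 63.2%, was 42.1% without P1 library 8. The knockout count lay between 30 and 48 without any one of libraries 10, 11, 13, 14 and 15 and was 81 without library 12.

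Most introns called in wild type over this step moved the same way in knockout. Of the 24 wild-type rises, 23 had the same sign in knockout and 14 were also called, with medians of 36.17 and 24.46 points. All 13 wild-type falls measured in both fell in knockout, 9 were called, and the medians were −41.01 and −35.41 points. Of the introns called in knockout and tested in wild type, all 33 rises and all 30 falls had the same sign there. Over all 13434 introns tested in both, 9521 had the same sign. No rise or fall called in 1 genotype was called the other way in the other. The 2 comparisons share no library, but 1 spread estimate per intron over all groups entered both, so their calls are not independent.

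The knockout calls included Kalrn, Itsn1, Stard5 (a cholesterol carrier), Slc12a8 and Nadsyn1 among the rises and Mog, Nfasc and Itpr1 among the falls. Nfasc, an adhesion molecule of the axon initial segment and node, had PSI of 78.57, 65.12 and 87.01 in knockout at P1 and 11.89, 12.08 and 18.94 at P10. Wild-type libraries had 55.56 and 59.52, then 10.98 and 23.67, and 12.27 to 23.66 at P30. Stard5 introns 4 and 5 rose together, intron 5 from 11.11 and 35.14 to 80.74 and 84.21 in wild type. Of the 7171 tested hosts, 154 rose and 106 fell in wild type (3.63%, against 4.05% of all genes, 2.2% rising and 1.85% falling), and 340 rose and 303 fell in knockout (8.97%, against 10.2%, 5.58% and 4.59%). Of the 14 wild-type falls 7 had a host that rose, and of 33 knockout falls with a tested host 15 did. The spliced form changed more than the retained form in 9 of the 14 wild-type falls (64.3%) and 23 of all 34 knockout falls (67.6%). The shares among uncalled introns of the same step were 33.9% and 37.5%, and the called rises had 6 of 24 and 7 of 37. With hosts of at least 5 cRPKM at both ages it was 3 of 4 wild-type falls and 13 of 18 knockout falls.

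From P10 to P30, 206 of 14240 members changed, 122 higher and 84 lower (1.45%, against 2.39% of all events, 1.67% higher and 0.721% lower). Without P10 library 5 or 6 the count was 70 or 40, and without P30 library 1 or 3 it was 119 or 104. Without P30 library 2 it was 170, of which 40.0% were higher, against 59.2%. Of the 7171 tested hosts 352 rose and 651 fell (14%, against 14.7% of all genes, 5.02% rising and 9.73% falling). Of 120 higher introns with a tested host, 34 hosts fell and 9 rose, and of 80 lower ones 9 fell and 18 rose. Kif22, Kif20a, Nuf2 and Frmpd3 held the largest rises and Itsn1, Fmo1 and Cpsf4l were among the largest falls. Frmpd3, on the X chromosome, was at 9.92 and 8.74 at P10 and at 88.71, 93.1 and 93.16 at P30, from 0.0 in all 5 P1 libraries. Of its exon-intron reads 722 crossed 1 junction and 3 the other.

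Knockout and wild type were compared to ask whether long introns need Sam68 for their removal. No member was called at P1 (0 of 13950) or at P10 (0 of 14920), and none of all 37825 and 39484 events, so that the background is 0%. At an unadjusted p below 0.05 limma gave 567 members at P1 (4.06%, against 4.35% of all events) and 662 at P10 (4.44%, against 4.43%). Other settings gave 0 or 1 call at P1 and 0 to 2 at P10. The median difference over members was 0.07 points at P1 and −0.39 at P10. Groups of 2 and 3 libraries limit what can be detected.

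Differences were small where reads were many. The median size of the difference was 2.39 points over all tested members at P1 and 3.14 at P10, and 8.04% and 10.8% differed by 10 points or more. Among 2309 members with at least 100 reads in every library the medians were 1.39 and 2.01 points, and 1.69% and 2.12% reached 10 points. Only 4 of these deeply read introns differed by 20 points or more at each age.

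Zkscan2, a zinc finger gene, was among the introns with the smallest p at P1. Its intron at chr7:130628946-130633092 (minus strand, 4147 nt, intron 5 of 6, with an annotated exon inside) had PSI of 67.9, 58.02 and 65.38 in knockout at P1 and 77.78, 66.04 and 38.71 at P10. Wild-type libraries had 11.11 and 11.43 at P1, 19.05 and 12.2 at P10 and 15.56, 19.23 and 20 at P30. No knockout library overlapped any wild-type library. The log2 odds difference at P1 was 3.66 ± 0.57 (SE, adjusted p = 0.139, with 0.0434 to 0.317 over other settings, the lowest with weighting by reads, and 0.305 to 0.517 without 1 library). At P10 it was 3.04 ± 0.57 (SE, adjusted p = 0.261), and neither passed.

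Mapped exon-intron reads in Zkscan2 were 24 to 55 in knockout and 4 to 10 in wild type, and exon-exon reads 6 to 19 and 8 to 40. All 294 exon-intron reads over the libraries lay on 1 junction and 0 on the other, and an annotated exon lies inside the intron, so the reads do not show that the whole intron was kept. Expression of the gene was 6.71 and 5.13 cRPKM at P1 and 7.56 and 4.31 at P10 (wild type, then knockout).

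In Acin1, whose protein joins complexes at spliced exon junctions, the intron at chr14:55261886-55262560 (minus strand) had PSI of 29.23, 32 and 30.72 in knockout at P1 against 4.35 and 2.02 in wild type (adjusted p = 0.15). The mapped reads differed less. Exon-intron reads were 5, 15 and 14 in knockout against 6 and 4, and exon-exon reads 46, 51 and 53 against 66 and 97. In the deposited values the 5 reads of knockout library 13 became 24.55 and the 6 of wild-type library 8 became 3.13. At P10 wild type had 18.31 and 42.26 and knockout 33.09, 14.58 and 20.99, which overlap. Its wild-type rise from P1 to P10 was called (adjusted p = 0.0452), but not without any one of the 4 wild-type libraries compared. Usp34, a deubiquitinase, had 12.31, 18.33 and 17.54 in knockout at P10 against 1.54 and 2.36 (adjusted p = 0.156), and at P1 the values were 14.29, 13.04 and 8.2 against 5.66 and 7.96. Inca1, a cyclin-dependent kinase inhibitor, had lower PSI in knockout, 41.18, 30 and 39.39 against 83.33 and 66.67 at P10 (adjusted p = 0.182), in a gene expressed below 1 cRPKM. None of these 3 passed.

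The values of Layn rested on thin evidence. Layn, a hyaluronan receptor, had the smallest p at P10 (adjusted p = 0.0602), with PSI of 57.14 and 53.33 in 2 knockout libraries and 0.0 in both wild-type ones. Each of the 2 values came from 1 mapped exon-intron read, which the correction turned into 27.5 and 26.83 reads, and the remaining knockout library had too few reads. Its adjusted p ran from 0.00146 to 1.0 over settings. At P1 the smallest adjusted p, 0.0861, belonged to a Mog intron at 100 in all 3 knockout libraries and 89.13 and 91.67 in wild type. That difference came from 1 mapped exon-exon read in each wild-type library, corrected to 4.73 and 4.79, against 0 in each knockout library.

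**Figure D5:**
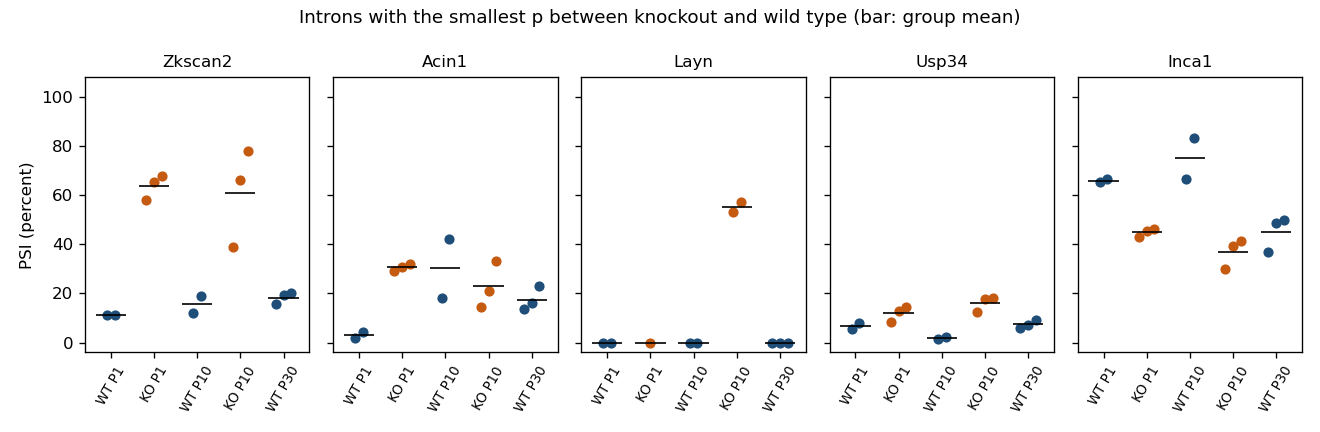
PSI (percent) in every library for the 5 introns named above for knockout against wild type, with group means as bars; wild type is blue and knockout orange. Zkscan2 has no overlap between genotypes at either age; the 2 knockout points of Layn at P10 rest on 1 mapped read each.

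Genes known from earlier Sam68 studies had 29 members in 15 genes, and none was called between genotypes. Nrxn2, a presynaptic neurexin, had an intron at chr19:6519328-6531843 (plus strand, the last of 20) with PSI of 55.48 and 64.76 in wild type at P1, against 40.93, 53.71 and 38.47 in knockout. At P10 the values were 63.29 and 51.72 against 50.86, 41.11 and 40.52. At P1 knockout and wild type did not overlap, nor did they at P10, with differences of −15.75 and −13.34 points (adjusted p = 1.0 at both). Wild type at P30 had 41.67, 46.31 and 44.31. Reads lay on 1 junction here as well (10411 and 53). The Bcl2l1 and Kif21a introns with the most reads differed by 0.16 and 3.78 points at P1.

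A difference in the knockout's effect between P1 and P10 passed in no member. The interaction of genotype and age called 0 of 13434 with limma, 341 were below an unadjusted p of 0.05 (2.54%, against 2.62% of all events), and the smallest adjusted p was 0.292. Host genes gave few calls between genotypes. Of 7171 tested, 2 differed at P1 (0.0279%, against 0.0356% of all genes, 0.00711% higher and 0.0284% lower) and 0 at P10 with limma, where 1 of 14063 genes was called (0.00711%). At an unadjusted p below 0.05 there were 308 hosts of 7171 and 748 genes of 14063 at P10.

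Marker genes checked the tissue. Markers of granule cells, Purkinje cells and Bergmann glia were present in all groups, and no listed marker was at 0 in every library. Mature granule cell markers summed to 551 cRPKM in wild type at P1 and 2930 at P30, Purkinje markers to 712 and 3070. Choroid plexus markers varied within groups, from 55.2 to 1520 cRPKM between P30 libraries and from 15.3 to 297 between knockout P1 libraries. Red blood cell markers summed to 32.5 to 458 in knockout at P1, against 546 to 548 in wild type. Markers of meninges and fibroblasts summed to 141 in wild type at P1 and 51.8 at P30. Midbrain and hindbrain markers summed to 17.1 to 39.9 in wild type at P1 and 0 to 15.1 in knockout at P1. Whether these differences bear on retention was not tested.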

How the data were processed

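The members, gene lists and tests were chosen with earlier results of these data known. The authors deposited PSI in percent per library with a quality field holding reads of both forms, and gene expression as cRPKM, an RPKM corrected for mappable length. Per the submitters' processing notes, FastQC and Trimmomatic were run and the build was mm9. The sources used here give no tool versions, aligner, table program or strand setting, so overlapping and antisense genes are uncertain. Reads in the quality field are corrected for mappability and split between the forms by PSI. They exceed the mapped reads by more than 2 times in 1.41% of members.

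The log2 odds of retention (0.5 added to each side, at least 10 reads) and log2(cRPKM + 1) were tested with limma 3.58.1 in R 4.3.3, with all 5 groups fitted together (residual df 8, spread trend on the mean), and adjusted by Benjamini-Hochberg over all events with mean PSI of 5 to 95 or over 14063 genes with a group mean of at least 1 cRPKM. Both scripts were tested on simulated data. Differences in text are of group mean PSI. Introns named are the 6 largest rises and 6 largest falls called per comparison (or the 3 smallest p), the 8 with most reads, the 6 highest and 4 lowest by PSI, members of the 5 hosts with most members, the 3 per gene list with most reads and the 3 nearest each edge of the rule. Coordinates are mm9 as deposited. Annotation and sequence come from GENCODE M21 (GRCm38), matched by structure, with no conversion. The order of the 2 exon-intron counts is not stated, so junctions are given as the one with more and the one with fewer reads. Not every intron taken by that rule, or called in a list, is reported here.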

Additional observations from a re-analysis of the deposited data

How the results depend on the processing

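No paired analysis was possible because the library numbers in the labels are unique and no group shares a number with another. Counts are of long introns called unless host genes are named, in the order wild-type P10 against P1, P30 against P10, P30 against P1 and knockout P10 against P1 (38, 206, 1031 and 71 as reported). Fitting only the libraries compared gave 0, 43, 676 and 22 introns and 0, 1710, 3005 and 98 host genes, with 0 host genes for knockout against wild type at P1 (2 as reported). Requiring balanced junctions gave 15, 71, 431 and 25. Weighting by reads gave 88 and 403 for the first 2 and 1 and 2 genotype calls at P1 and P10. A minimum of 20 reads gave 47 for knockout P10 against P1 and, like PSI in points, 1 for knockout against wild type at P10. Without a filter on expression, 4 host genes differed at P1.

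Settings chosen after seeing the data were a spread trend on reads (1 call at P10 between genotypes), centring by library (58 over the first wild-type step, 1 interaction) and hosts of at least 5 cRPKM (14, 96, 617 and 33). Leaving out 1 library gave 12 to 24, 40 to 170, 390 to 1023 and 30 to 81 introns, and 0 to 1 for both genotype comparisons and the interaction. Host genes then numbered 85 to 181, 540 to 695, 999 to 1293 and 392 to 816 (260, 1003, 1708 and 643 as reported), and 0 to 19 and 0 to 5 between genotypes at P1 and P10. A group left with 1 library is assumed to vary like the others. Of 99 named results, 0 reversed in 1168 recomputations, 181 recomputations in 48 results lost the call and 5 gained one. Depth limits the weak hosts, where a few reads set PSI.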

Other observations

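Scn9a, a sodium channel of peripheral neurons, had PSI of 0.0 and 1.89 at P1 and 100 in all 3 P30 libraries at chr2:66387179-66388396. Its expression fell from 4.19 to 0.11 cRPKM. Mapped exon-exon reads of Scn9a were 12 and 26 at P1 and 0 in each P30 library. Exon-intron reads were 0 and 1 at P1 but 37, 53 and 50 at P30. Whether these P30 reads come from Scn9a transcripts was not tested. The Fam131a intron had 100 in 1 wild-type P1 library, 89.47 and 83.33 in 2 knockout P1 libraries and 1.48 to 5.26 in knockout at P10.

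Rab11fip2, which binds a Rab GTPase of recycling endosomes, had PSI from 91.85 to 98.31 in the 13 libraries. Gad1, the GABA-synthesising enzyme, had 2.99 to 8.85 at its 5′ UTR intron, with no call in P30 against P1 (adjusted p = 0.339). Wdr85, with a mean PSI of 5.0, differed by 9.68 points between P1 and P30 (adjusted p = 0.0214), just under the 10 points asked of a call. Gabra6, the granule cell GABA-A receptor subunit, was measured in no P1 library. Its last intron had 10.95 to 13.12 in the P10 libraries and 9.81 to 13.28 at P30.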
